A study of Mus musculus with 12 samples.

Results

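The genes of immunoglobulin chains were followed through RNA sequencing of cultured macrophages. They were picked by symbol, as every heavy, kappa and lambda variable gene, every heavy and lambda constant gene, the kappa constant gene Igkc and the joining chain gene Jchain, which gave 232 of the 22243 genes in the table. Among the 232 were 115 heavy, 100 kappa and 3 lambda variable genes, 8 heavy constant genes, 4 lambda constant genes, Igkc and Jchain.

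Bone marrow-derived macrophages (BM-Mɸs) came from C57Bl/6 littermates, 1 pair from each of 6 litters, and each mouse gave 1 library. Both groups carry floxed ErbB4 alleles. The 6 mice labelled LysMCre/ErbB4-floxxed (ErbB4myeKO) also carry Cre recombinase driven by the promoter of Lyz2, which is active in myeloid cells, and the 6 labelled ErbB4-floxxed (ErbB4FF) do not. All 12 cultures were grown from whole bone marrow in conditioned medium with M-CSF, were primed with IFN-γ (100 U/mL, 16 h) and activated with LPS (100 ng/mL, 6 h), and were compared to learn what loss of the receptor ErbB4 does to inflammatory activation. The mice were adults of both sexes, but the labels give no sex per library.

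An antibody is built from paired heavy and light chains, and only cells of the B lineage join the gene segments that encode them. A variable gene is cut next to its last codons and joined to a D and a J segment in heavy chains, or to a J segment in kappa and lambda chains, and the joined exon is spliced to a constant gene. Naive B cells use the constant genes Ighm and Ighd, while B cells that have switched class use a gamma, alpha or epsilon gene. Plasma cells, the antibody-secreting end of the lineage, are held in bone marrow, make very large amounts of immunoglobulin mRNA, and use the joining chain to link IgM and IgA into polymers. Macrophages take up antibody-coated particles through Fc receptors, but do not rearrange these genes.

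The end of a variable exon that takes part in joining is shown for the genes on which the results turn, in sequence from the transcripts of GENCODE M21 (GRCm38). The capitals mark the codon of the conserved cysteine that opens the third hypervariable loop, and the bases after it are the germline part of that loop. Bases added or lost at the joint, and mutated bases, are in no reference transcript, so that reads across them are hard to assign. The first 5 are the kappa genes with the highest mean level, followed by the kappa gene with the smallest p between the genotypes, a lambda gene, and 3 heavy chain genes.
Igkv4-57: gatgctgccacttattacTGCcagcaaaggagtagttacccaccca
Igkv10-96: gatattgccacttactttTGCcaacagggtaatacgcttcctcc
Igkv15-103: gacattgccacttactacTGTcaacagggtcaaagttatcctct
Igkv12-46: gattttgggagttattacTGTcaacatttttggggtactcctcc
Igkv12-44: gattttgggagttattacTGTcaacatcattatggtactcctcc
Igkv1-88: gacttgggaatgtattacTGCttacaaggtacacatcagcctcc
Iglv1: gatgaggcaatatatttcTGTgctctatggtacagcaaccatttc
Ighv1-26: gactctgcagtctattacTGTgcaaga
Ighv7-1: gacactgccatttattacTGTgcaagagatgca
Ighv5-16: gacacagccacgtattacTGTgcaagaga
The kappa constant chain ends in another cysteine, shown in capitals before the stop codon, which forms the bond to the heavy chain. Igkc has 1 coding exon and no close copy, so that none of its 31-base words occurs in another gene.
Igkc: gtcaagagcttcaacaggaatgagTGTtag

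Values are TPM, a share of all transcripts, which correct for transcript length and scale each library to the same total. TPM carry no read depth, and from the authors' mean counts of 8379 other transcripts 1 TPM of a 0.35 kb variable gene stood for about 2.13 normalized counts by the median, and 1 TPM of Igkc for 3.24. A value of a few TPM therefore rests on a handful of reads. Between 10214 and 12985 genes were above 0 in a library. The macrophage genes Adgre1 (F4/80) and Cd68 were high in all 12 libraries, from 662 to 1060 TPM and from 314 to 571 TPM. Erbb4 itself lay between 0.280 and 0.852 TPM in libraries labelled ErbB4myeKO and between 0.372 and 0.716 TPM in those labelled ErbB4FF, and its TPM is not that of the floxed exon alone. Lyz2, which holds the Cre insertion, was lower in the library labelled ErbB4myeKO in litters 1 to 5 (log2 ratio -1.20 to -0.81) and higher in litter 6 (1.43). Litter 6 thus goes against the other litters, and libraries are named by their labels. As litter 6 is also the litter with the most immunoglobulin, the main genotype differences of immunoglobulin genes are also given without it.

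The summed level of the 232 genes ranged from 0 to 3003 TPM between cultures, and the lowest and highest litters were the same in both genotypes. In litters 1 to 6 the sum was 186, 9.76, 3.21, 103, 264 and 3003 TPM in the libraries labelled ErbB4myeKO. In those labelled ErbB4FF it was 215, 15.9, 0, 142, 138 and 359 TPM. Litter 3 was the lowest, litter 2 the next lowest and litter 6 the highest in both, while litters 1, 4 and 5 lay between. Immunoglobulin took 0.494% of the TPM of the table in ErbB4myeKO 6 and at most 0.0572% in the other 11 libraries. In bulk RNA, a culture with fewer cells that make these transcripts cannot be told apart from one in which each such cell makes less.

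Of the 232 genes, 155 were above 0 in at least 1 library and 77 were listed at 0 in all 12. A mean of at least 1 TPM was reached by 59 genes, but by only 19 over litters 1 to 5, and 47 of the 59 had their highest value in ErbB4myeKO 6.

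Igkc (ENSMUSG00000076609, chr6:70726435-70726966, plus strand), the constant region of most mouse light chains, was the most abundant member. It was 75.6, 4.50, 0, 44.9, 118.5 and 1421 TPM in ErbB4myeKO 1 to 6 and 60.1, 3.27, 0, 57.8, 58.5 and 169.7 TPM in ErbB4FF 1 to 6. The groups overlapped, the library from litter 3 was listed at 0 in both, and the library from litter 6 was the highest in both. In ErbB4myeKO 6 Igkc ranked 56 among all genes, whereas in ErbB4FF 6 it ranked 591 and in ErbB4FF 2 it ranked 6405. The log2(TPM + 0.5) ratio within litters was 0.74 ± 1.23 (SD, n = 6 litters), higher in 4 litters, lower in 1 and equal in 1. The mean is smaller than the SD (two-sided exact permutation p = 0.188). Without litter 6 the ratio was 0.28 ± 0.51 (exact permutation p = 0.375). Swapping litter 3, at 0 in both libraries, changes nothing, so that the smallest possible p was 0.0625, and larger without litter 6. Neither permutation test could thus give a p under 0.05. In limma the difference was 0.74 with a standard error of 0.41 (adjusted p = 0.633).

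Jchain (ENSMUSG00000067149, chr5:88519809-88527891, minus strand), which links antibody polymers and is made by plasma cells and their precursors, was far lower than Igkc. It was 2.66, 0.656, 0.276, 1.17, 3.48 and 22.6 TPM in ErbB4myeKO 1 to 6 and 0.409, 0.203, 0, 1.46, 1.89 and 4.83 TPM in ErbB4FF 1 to 6. The value of litter 6 was the highest in each group, and the ranges of the groups overlapped. In 5 of 6 litters the library labelled ErbB4myeKO had more Jchain, and the log2 ratio was 0.96 ± 0.86 (SD, n = 6 litters, exact permutation p = 0.0625). The 64 swaps of genotype within litters allow no p below 0.0312. Without litter 6 the ratio was 0.73 ± 0.72 (exact permutation p = 0.125, where the smallest p is 0.0625). Per 100 TPM of Igkc there were between 0.680 and 14.6 TPM of Jchain, with a median of 2.89 over the 10 libraries that had Igkc. The table holds 1 transcript of Jchain, and 87.2% of its 31-base words also occur in other annotated transcripts of the gene. Whether reads of those are counted in these values is not known.

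**Figure D1:**
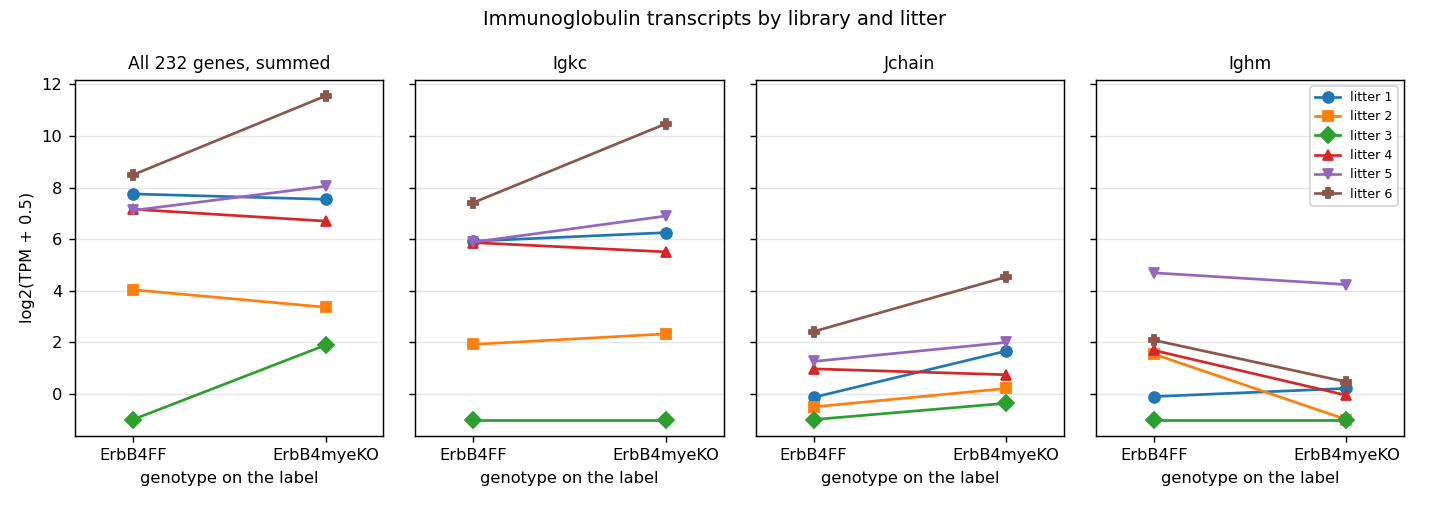
Level of the 232 summed genes, Igkc, Jchain and Ighm on the log2(TPM + 0.5) scale, with the genotype on the label along the x axis and a line joining the 2 littermates of each of 6 litters. Litter 3 is at the bottom of the first 3 panels, and litter 6 is at their top and steepest there with Igkc at 1421 against 169.7 TPM, while in the Ighm panel litter 5 is highest (18.4 and 25.3 TPM).

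Ighm (ENSMUSG00000076617, chr12:113418558-113422730, minus strand), the constant gene of IgM, had an order of its own. It was 0.657, 0, 0, 0.461, 18.4 and 0.877 TPM in ErbB4myeKO 1 to 6 and 0.429, 2.41, 0, 2.72, 25.3 and 3.73 TPM in ErbB4FF 1 to 6. Both libraries of litter 5 stood apart, and the genotypes overlapped. Per 100 TPM of Igkc, Ighm was 15.5 and 43.3 TPM in litter 5, 73.7 TPM in ErbB4FF 2, where Igkc was only 3.27 TPM, and 0 to 4.71 TPM in the other 7 libraries that had Igkc, with 0.0617 TPM in ErbB4myeKO 6 the lowest above 0. Ighm was lower in the library labelled ErbB4myeKO in 4 litters and higher in 1, and the log2 ratio averaged -1.01 ± 1.13 (SD, n = 6 litters, exact permutation p = 0.125). Without litter 6 the ratio was -0.88 ± 1.21 (exact permutation p = 0.250). Ighm was also at 0 in both libraries of litter 3, so that its permutation tests have the same limits as those of Igkc.

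The other 7 heavy constant genes were close to 0. Ighd, which naive B cells express beside Ighm, was 0.379 TPM in ErbB4myeKO 5, 0.0912 TPM in ErbB4FF 6 and 0 elsewhere. The genes of switched classes were found almost only in ErbB4myeKO 6, where Ighg2c was 1.70 TPM, Igha 0.355 TPM, Ighg1 0.293 TPM and Ighg2b 0.141 TPM. Elsewhere Igha was 0.0653 TPM in ErbB4myeKO 5 and Ighg3 0.0688 TPM in ErbB4FF 6, and Ighe was listed at 0 in all 12 libraries. Of the heavy constant TPM, Ighm made up 100% in 6 of the 9 libraries that had any, 97.6% in ErbB4myeKO 5, 95.9% in ErbB4FF 6 and 26.1% in ErbB4myeKO 6.

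The heavy constant values are those of 1 annotated transcript of each gene. For all 8 genes GENCODE M21 has 2 transcripts, and the one in the table is that whose last exons lie 1914 to 3872 bp further downstream, which is where the membrane exons of these genes are. The other transcript, which ends after the last constant domain as secreted antibody does, is not among the table's transcripts, and 37.5% to 84.8% of the 31-base words of a table transcript are also in it. Whether the other transcript was in the kallisto index is not given in the sources used here, so that reads of the secreted form may or may not be counted in these values. The isotype shares and the level of heavy against light constant genes carry this limit. Heavy constant genes held a median of 1.61% of all constant TPM (10 libraries), while heavy variable genes held a median of 37.9% of all variable TPM (11 libraries).

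Light chains were mostly kappa. Lambda constant genes held a median of 1.54% of the light constant TPM over 10 libraries, and lambda variable genes a median of 2.03% of the light variable TPM. The first median was 2.55% without litter 2 or without litter 6, and 0.950% when genes averaging under 1 TPM were left out. Iglc1 was 0.823, 0, 0, 0.422, 7.96 and 13.9 TPM in ErbB4myeKO 1 to 6 and 6.38, 0, 0, 2.27, 0 and 0.718 TPM in ErbB4FF 1 to 6. Iglc3 reached 3.95 TPM in ErbB4myeKO 6 and 3.22 TPM in ErbB4FF 1, Iglc2 reached 1.98 TPM in ErbB4FF 5, and Iglc4 was listed at 0 throughout. The library ErbB4FF 1 stood apart, with lambda at 16.0% of the light constant and 30.9% of the light variable TPM, against at most 7.37% and 7.98% in the other libraries. Its littermate ErbB4myeKO 1 had 1.08% and 1.49%. Constant and variable genes are separate entries of the reference but parts of 1 joined mRNA, so that these shares are not independent of each other.

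Kappa variable genes moved with Igkc. Their summed TPM per TPM of Igkc had a median of 0.724 and lay between 0.691 and 0.957 in 8 of the 10 libraries with Igkc. The exceptions were both libraries of litter 2, at 0.168 and 1.80, where Igkc was under 5 TPM. Igkc and the kappa variable genes of a library share its TPM total.

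**Figure D2:**
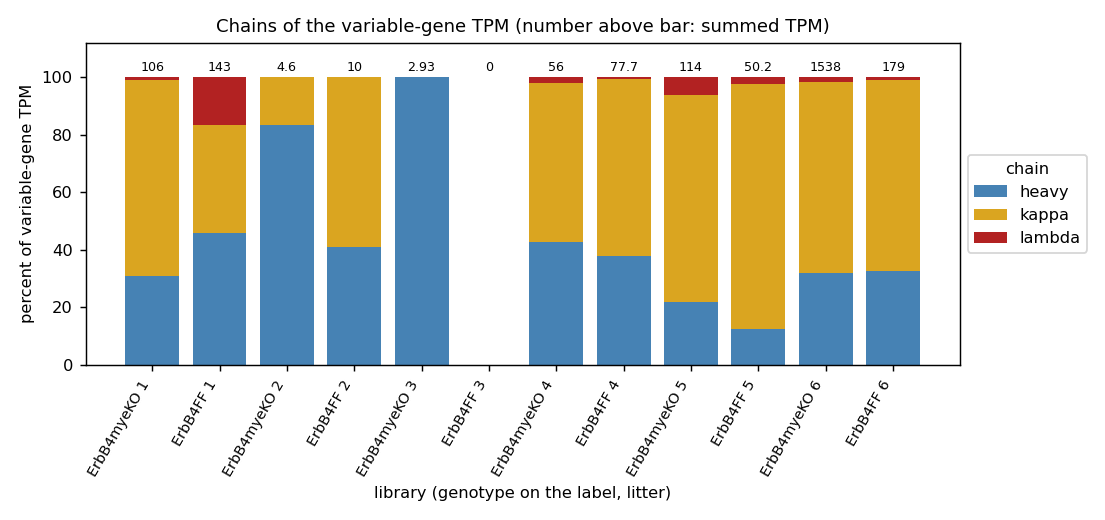
Percent of the summed TPM of variable genes that belonged to heavy (blue), kappa (ochre) and lambda (red) genes in each library, with the summed TPM above each bar and no bar for ErbB4FF 3, where all were listed at 0. Lambda took 16.8% in ErbB4FF 1 and at most 6.22% elsewhere, and the bars of litters 2 and 3 rest on the smallest sums.

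The variable genes above 0.1 TPM differed from library to library, including between littermates. By the counts per TPM given above, 0.1 TPM of such a gene is under 1 normalized count. Whether a gene passes this cut in 1 library and not in another thus rests on few reads. Of the 218 variable genes, 143 were above 0.1 TPM in at least 1 library and 75 in none. Only 8 were above 0.1 TPM in 6 or more libraries, and 33 were above it in ErbB4myeKO 6 alone. In ErbB4myeKO 6, 56 heavy and 58 kappa genes were above 0.1 TPM, against 28 and 34 in ErbB4FF 6 and at most 15 and 26 in the other libraries. ErbB4FF 1, at a sum of 215 TPM, had 14 variable genes above 0.1 TPM, fewer than the 29 of ErbB4FF 4 at 142 TPM.

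Littermates shared between 0 and 50 of these genes. In litter 6, 50 genes were above 0.1 TPM in both, which is 43.1% of those in ErbB4myeKO 6 and 79.4% of those in ErbB4FF 6. In litter 5 the shared genes numbered 12 (27.9% and 57.1%), in litter 4 they numbered 8 (34.8% and 27.6%) and in litter 1 they numbered 4 (13.3% and 28.6%). In litters 2 and 3 none was shared, but there were only 5 and 4 such genes in litter 2 and 1 and 0 in litter 3. Sharing was not compared with that between litters or with that of other genes.

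The kappa gene found most widely was Igkv15-103 (chr6:68437440-68437925, plus strand), above 0.1 TPM in 9 libraries, and none of its 31-base words occurs in another gene. It was 4.77, 0, 0, 4.28, 5.76 and 13.2 TPM in ErbB4myeKO 1 to 6 and 37.0, 0.688, 0, 1.98, 8.15 and 9.37 TPM in ErbB4FF 1 to 6. The highest value was in ErbB4FF 1, where this 1 gene held 69.2% of the kappa variable TPM. In the same library Ighv7-1 (chr12:113896408-113896946, minus strand), at 30.8 TPM, held 47.1% of the heavy variable TPM, and Iglv1 (chr16:19085017-19085500, minus strand), at 20.3 TPM, held 85.0% of the lambda variable TPM. In the other libraries Ighv7-1 was between 0 and 5.41 TPM and Iglv1 between 0 and 24.1 TPM. Thus ErbB4FF 1 had a summed level close to that of its littermate but 14 variable genes above 0.1 TPM where the littermate had 30.

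The kappa genes with the highest means otherwise owed them to ErbB4myeKO 6. Igkv4-57 was 129.0 TPM there and listed at 0 in the other 11 libraries. Igkv12-44 was 72.6 TPM there and at most 1.51 TPM elsewhere, and Igkv12-46 was 68.3 TPM there, 4.63 TPM in ErbB4FF 6 and at most 1.21 TPM elsewhere. In the sequences above, the ends of Igkv12-46 and Igkv12-44 are the same up to the cysteine codon, and of their 31-base words 48.4% and 55.8% occur in other genes, so that reads can be split between them. No single gene dominated ErbB4myeKO 6, where Igkv4-57 held 12.7% of the kappa and Ighv1-26 18.5% of the heavy variable TPM.

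Among heavy genes, Ighv1-26 (chr12:114788372-114788805, minus strand) was 91.2 TPM in ErbB4myeKO 6, 4.67 TPM in ErbB4myeKO 5, 2.76 TPM in ErbB4FF 6 and 0 in the rest. Ighv9-3 was 40.3 TPM in ErbB4myeKO 6, 9.37 TPM in ErbB4FF 1 and at most 3.05 TPM elsewhere. Ighv1-54 was 35.3 TPM in ErbB4myeKO 6 and listed at 0 in the other 11 libraries. Ighv1-39 was 14.8 TPM in ErbB4myeKO 6, 9.63 TPM in ErbB4FF 1 and 4.58 TPM in ErbB4FF 4, and 0 in the rest. Of the lambda genes, Iglv3 was highest in ErbB4FF 1 at 3.58 TPM, and Iglv2 was found only in ErbB4myeKO 5 at 1.85 TPM. Over all 115 heavy and 100 kappa genes, a median of 44.7% and 48.8% of the 31-base words of a transcript occur in other genes, which makes levels of most single variable genes uncertain.

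**Figure D3:**
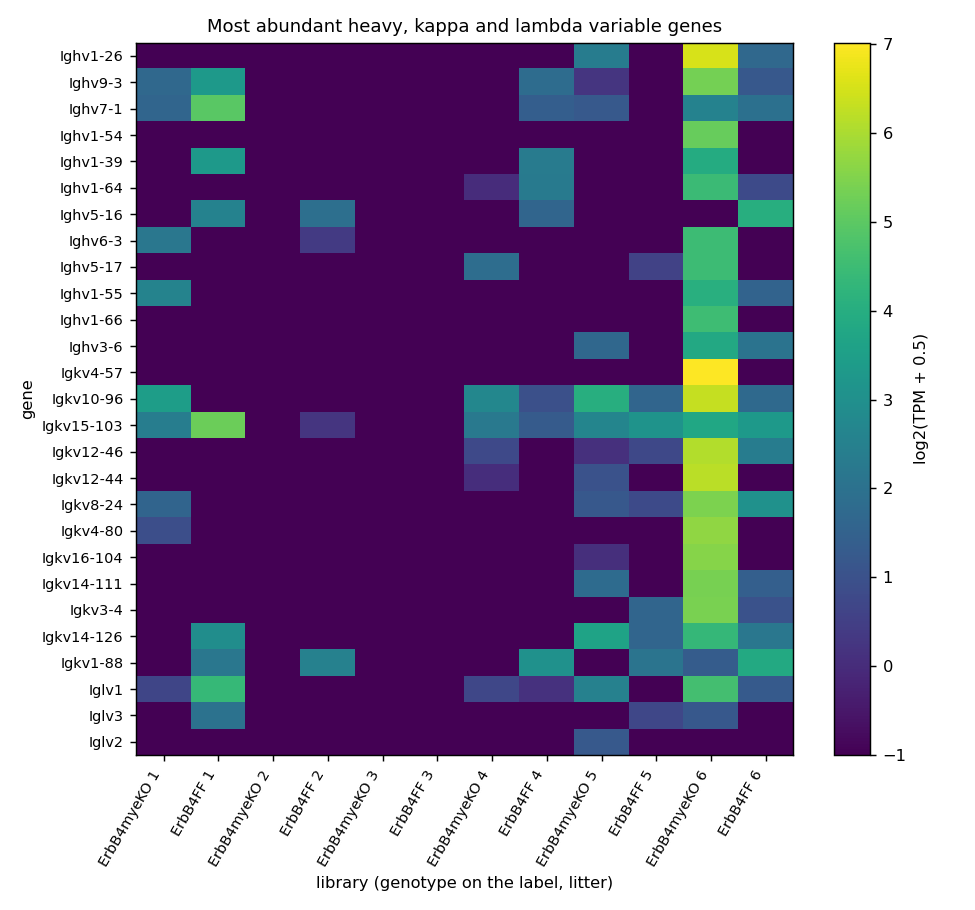
Levels of the 12 heavy and 12 kappa variable genes with the highest mean TPM and of the 3 lambda genes, as log2(TPM + 0.5), with genes as rows and the 12 libraries as columns ordered by litter. The column of ErbB4myeKO 6 is bright for most genes, ErbB4FF 1 is bright for Igkv15-103 (37.0 TPM), Ighv7-1 (30.8 TPM) and Iglv1 (20.3 TPM), and the columns of litter 3 are dark throughout.

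The question of the design is whether the genotypes differed. The summed level was higher in the library labelled ErbB4myeKO in 3 litters and lower in 3, and the log2 ratio averaged 0.92 ± 1.69 (SD, n = 6 litters) over all litters and 0.50 ± 1.48 (SD, n = 5 litters) without litter 6. In litter 3 the ratio of 2.89 stands for 3.21 TPM against 0. Heavy variable genes had a ratio of 1.06 ± 1.73 and kappa variable genes of 0.25 ± 1.80 (SD, n = 6 litters), each smaller than its spread. Without litter 6 they were 0.66 ± 1.60 and -0.32 ± 1.27 (SD, n = 5 litters), so that the kappa ratio changed sign.

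Of 8780 genes tested in limma with litter as a block, 0 had an adjusted p under 0.05 (smallest 0.603), and 721 (8.21%) had an unadjusted p under 0.05. Of the 59 immunoglobulin genes among them, 0 had an adjusted p under 0.05 and 10 (16.9%) an unadjusted p under 0.05. Higher in libraries labelled ErbB4myeKO were 7 (11.9%, where 3.83% of all genes were), and lower were 3 (5.08%, where 4.38% were). The fitted difference was above 0 for 52 genes and below 0 for 7, with a median of 0.86, where the median of all genes was 0.00. These figures lean on litter 6, since 47 of the 59 genes were highest in ErbB4myeKO 6 and a gene that passed the 1 TPM filter through that library had to be higher there, so that they do not count as support for a difference. Of the 10 genes with an unadjusted p under 0.05, 6 averaged under 1 TPM in 1 genotype (2 of the 3 that were lower and 4 of the 7 that were higher) and so passed the filter only through the genotype in which they were high. Their p-values are given with this limit and do not count as support either. Without litter 6, 19 genes were tested, 11 above and 8 below 0, with a median of 0.06. Of these, 3 had an unadjusted p under 0.05, where 5.82% of all 8693 genes did.

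Igkv1-88 (ENSMUSG00000076535, chr6:68862265-68863031, minus strand), a kappa variable gene, had the smallest p of the immunoglobulin genes. It was listed at 0 in ErbB4myeKO 1 to 5 and was 2.04 TPM in ErbB4myeKO 6, while in ErbB4FF 1 to 6 it was 3.99, 5.20, 0, 7.82, 3.77 and 14.0 TPM. It averaged 0.340 TPM in libraries labelled ErbB4myeKO and 5.81 TPM in those labelled ErbB4FF, and passed the filter only through the latter. The library labelled ErbB4FF had more in 5 litters, and in litter 3 neither had any. The groups overlapped through litter 3 and litter 6. The log2(TPM + 0.5) difference was -2.72 with a standard error of 0.50 (limma, unadjusted p = 0.00073, adjusted p = 0.603), and -2.77 with a standard error of 0.60 without litter 6. Without litter 3 the difference was -3.27 with a standard error of 0.24 and the adjusted p was 0.0490, and in the other alternatives the adjusted p was 0.499 or more. Of its 31-base words 0.301% occur in another gene, so that its reads are hardly shared with relatives.

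Ighv5-16 (chr12:113838526-113839010, minus strand), a heavy variable gene, had the same direction. It was listed at 0 in all 6 libraries labelled ErbB4myeKO and was 5.38, 3.35, 0, 2.56, 0 and 15.7 TPM in ErbB4FF 1 to 6 (limma, unadjusted p = 0.0102, adjusted p = 0.603). It too passed the filter only through libraries labelled ErbB4FF. Its highest value is that of litter 6, without which the unadjusted p was 0.0280 and the adjusted p 0.767 in limma. Of its 31-base words 4.57% occur in other genes and 83.4% in the gene's other annotated transcript. Ighm, with the values above, was the third gene that was lower (difference -1.01 with a standard error of 0.40, unadjusted p = 0.0375). Without litter 6 its difference was -0.88 and limma's unadjusted p was 0.0980.

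The genes that were higher in libraries labelled ErbB4myeKO were Jchain and 6 variable genes. Igkv10-96 (chr6:68631963-68632442, minus strand) was 10.5, 0, 0, 6.05, 15.9 and 79.5 TPM in ErbB4myeKO 1 to 6 and 0, 0, 0, 1.45, 2.56 and 2.86 TPM in ErbB4FF 1 to 6. Its difference was 2.20 with a standard error of 0.69 (limma, unadjusted p = 0.0135), and 1.72 with a standard error of 0.68 without litter 6. It was higher in 4 litters and at 0 in both libraries of the other 2, and 48.0% of its 31-base words occur in other genes, mostly in Igkv10-94. Igkv1-110 (difference 1.25), Igkv6-32 (1.51) and Igkv17-127 (1.49) were also higher in every litter in which they were found, which was 4, 4 and 3 litters. Igkv4-59 and Ighv14-3 were each found in 4 libraries labelled ErbB4myeKO, at up to 13.2 and 10.3 TPM, and were listed at 0 in all 6 libraries labelled ErbB4FF. The differences of these 6 genes had unadjusted p-values between 0.0135 and 0.0438 and an adjusted p of 0.603, and Igkv4-59, Ighv14-3, Igkv6-32 and Igkv17-127, which averaged at most 0.191 TPM in libraries labelled ErbB4FF, entered the test only through those labelled ErbB4myeKO. Of the 31-base words of Igkv4-59, 87.0% occur in other genes, of those of Igkv17-127 72.9%, of Igkv1-110 63.6%, of Ighv14-3 41.5% and of Igkv6-32 2.08%. Of those of Igkv17-127, 86.0% also occur in other annotated transcripts of the gene. Without litter 6, Igkv4-59, Ighv14-3 and Igkv6-32 fell below the filter on low values, and Igkv1-110, Igkv17-127 and Jchain had unadjusted p-values of 0.0854, 0.110 and 0.0610.

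**Figure D4:**
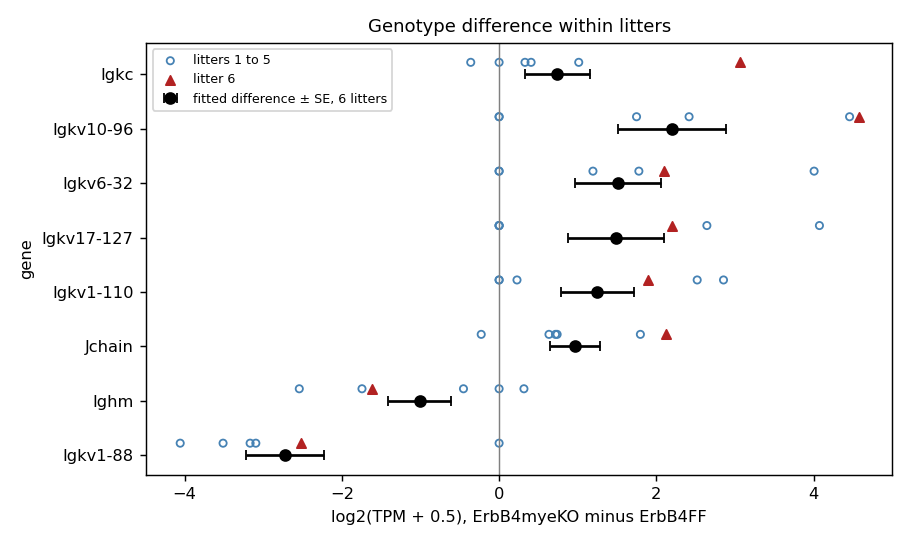
Difference of log2(TPM + 0.5) between the libraries labelled ErbB4myeKO and ErbB4FF for Igkc and the 7 genes with an unadjusted p under 0.05 that were above 0 in both groups, as the fitted difference with its standard error (black) and the ratio of each litter (open circles for litters 1 to 5, triangle for litter 6). For Igkv1-88 5 litters lie at or below -2.52 and 1 at 0, while for Igkc litters 1 to 5 lie between -0.36 and 1.01 and litter 6 at 3.06.

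Markers of the B lineage were looked at in the same libraries. Ms4a1 (CD20), a surface protein of B cells, was at most 0.0771 TPM. Of the signalling chains of the B cell receptor, Cd79a was at most 0.326 TPM and Cd79b was between 0 and 2.003 TPM, with its highest values in ErbB4FF 6 and ErbB4myeKO 5. Of the 20 genes of B-cell identity only 3 reached a mean of 1 TPM, and the sum of the list, 65.3 to 164 TPM in libraries labelled ErbB4myeKO and 100.5 to 204 TPM in those labelled ErbB4FF, was almost all Cd72 and Blnk. Both were found in every library, including litter 3, at no less than 49.5 and 14.2 TPM. Cd22, the next highest by its mean, was at most 2.40 TPM. Of the 15 genes above 0.1 TPM in any library, 13 were highest in another library and 2, named after their values were seen, in ErbB4myeKO 6. Ly6d, a surface protein of early B-lineage cells, was 3.46 TPM in ErbB4myeKO 6, 0.672 TPM in ErbB4FF 6, 1.489 and 1.504 TPM in litter 5 and at most 0.770 TPM elsewhere, and Pou2af1, a coactivator of immunoglobulin genes, was 2.08 TPM in ErbB4myeKO 6 and at most 0.312 TPM elsewhere. Of the genes of B-cell progenitors, Rag1 of the recombinase and Igll1 of the surrogate light chain were listed at 0 in all 12 libraries, and Vpreb3 was 0.238 TPM in ErbB4myeKO 5 and 0.260 TPM in ErbB4myeKO 6. The sum of that list (25.2 to 59.6 and 20.3 to 73.0 TPM) was almost all Cd93 and Il7r, and no other gene of it reached 1 TPM in any library.

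Genes of plasma cells were split in the same way. Slamf7, also found on activated macrophages, Hsp90b1, a chaperone of secreting cells in general, and Ell2, an elongation factor, were above 50 TPM in all 12 libraries and carried the list's sum of 1012 to 2466 and 1065 to 2259 TPM. Mzb1, a chaperone of immunoglobulin assembly, was 2.98 TPM in ErbB4myeKO 6, 0.649 TPM in ErbB4FF 6, 0.575 and 0.290 TPM in litter 5, 0.457 and 0.164 TPM in litter 4, and 0 in litters 1 to 3. Irf4, a factor of plasma cell development picked after its values were seen, was 0.630 TPM in ErbB4myeKO 6 and at most 0.178 TPM elsewhere. Of the 15 genes of the list above 0.1 TPM in any library, 4 were highest in ErbB4myeKO 6, 3 each in ErbB4myeKO 2 and 3, and the rest in other libraries. The 4 were Mzb1, Irf4, Pdia4 (64.7 TPM) and Txndc5 (17.8 TPM). Other genes of the list had other orders. Prdm1, the regulator that drives plasma cell fate, was highest in ErbB4myeKO 3 at 7.20 TPM, 1.19 TPM in ErbB4myeKO 6 and 0 in ErbB4myeKO 5, and Sdc1 (CD138) was highest in ErbB4myeKO 5 at 25.3 TPM and 13.4 TPM in ErbB4myeKO 6. Tnfrsf17 (BCMA) was listed at 0 in all 12 libraries. The part of B-lineage cells in the immunoglobulin levels was not tested. In limma 0 of the 3 B-cell identity, 0 of the 2 progenitor and 0 of the 12 plasma cell genes that passed the filter had an unadjusted p under 0.05.

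Of the markers of other blood cells, those of neutrophils had their highest sum in litters 5 and 6. The 12 neutrophil genes summed to 375 TPM in ErbB4myeKO 6, 155 TPM in ErbB4FF 6, 216 and 186 TPM in litter 5 and between 41.2 and 74.0 TPM in litters 1 to 4. The highest of them were S100a8, at 252.7 TPM in ErbB4myeKO 6 against 24.8 to 97.6 TPM in the others, and S100a9, at 101 and 103 TPM in ErbB4myeKO 6 and 5, and Ngp, at 18.4 TPM at most. Granule genes of neutrophil precursors such as Mpo and Elane were at most 0.549 and 0.377 TPM, and Retnlg was listed at 0 throughout. Of the 11 neutrophil genes above 0.1 TPM in any library, 5 were highest in ErbB4myeKO 5, 4 in ErbB4myeKO 6, and 1 each in ErbB4FF 5 and ErbB4FF 3. The last was Elane, which was 0 in litter 5. Mmp8, a collagenase, followed the sum only in part. It was highest in ErbB4myeKO 6 at 3.84 TPM, but was 0.820 and 0.552 TPM in litter 5 against 1.00 to 2.55 TPM in litters 1 to 4. Whether such cells have a part in the immunoglobulin levels was not tested. In the 14 genes of T and NK cells, with sums of 8.43 to 30.2 and 14.4 to 25.2 TPM, Cd247 carried nearly all of the sum, Cd4 followed at up to 2.74 TPM, and Cd3e was at most 0.0969 TPM. The sum of the erythroid genes stayed under 1 TPM, with at most 0.696 and 0.981 TPM. Among genes of these lists that passed the filter, 1 of 5 neutrophil genes, Camp, had an unadjusted p under 0.05 (difference 0.45; limma, adjusted p = 0.603). Of the 8 macrophage genes, led by Lyz2, Cd14 and Adgre1, 1 had such a p, Fcgr1, which was lower in libraries labelled ErbB4myeKO. Over all genes tested the share with such a p was 8.21%.

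**Figure D5:**
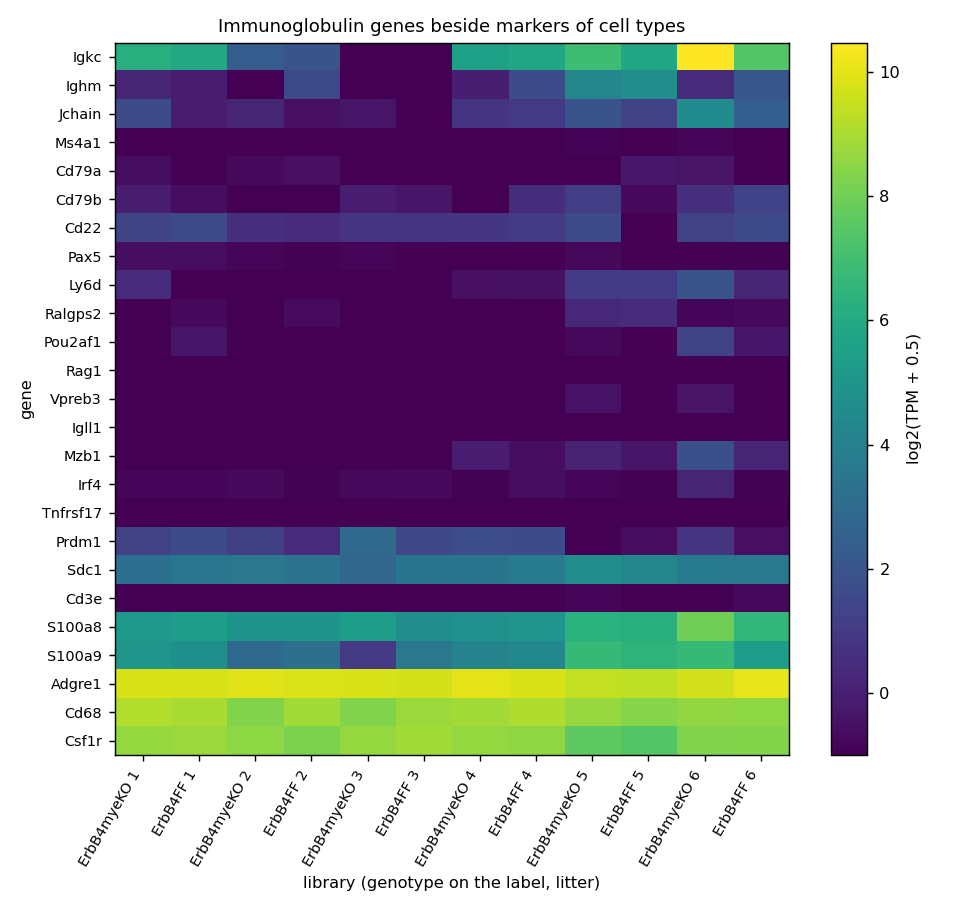
Levels of Igkc, Ighm and Jchain above those of 22 marker genes of B cells, progenitors, plasma cells, T cells, neutrophils and macrophages, as log2(TPM + 0.5), with the 12 libraries as columns ordered by litter. Rag1, Igll1 and Tnfrsf17 are dark in every column, Mzb1 and Pou2af1 are brightest in ErbB4myeKO 6 (2.98 and 2.08 TPM), and Adgre1 is bright in all.

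Several receptors that bind immunoglobulin were expressed in all 12 libraries. The shared gamma chain Fcer1g was 2890 to 5488 TPM in libraries labelled ErbB4myeKO and 3216 to 6049 TPM in those labelled ErbB4FF. The activating receptor Fcgr4 was 393 to 1312 and 417 to 1544 TPM, and Fcgr3 149 to 381 and 164 to 664 TPM. The lowest library for both, and for Fcgr1 at 33.4 TPM, was ErbB4myeKO 3, of the litter with the least immunoglobulin. Fcer1g and Fcgrt (11.4 TPM), however, were lowest in ErbB4myeKO 6, the library with the most. In that library Fcgr4 was 520 TPM, Fcgr3 269 TPM and Fcgr1 134 TPM. A relation of these receptors to the immunoglobulin level was not tested. Of the 10 genes of this list 7 were tested, 0 had an adjusted p under 0.05 and 2 had an unadjusted p under 0.05, both lower in libraries labelled ErbB4myeKO, where 4.38% of all genes were. These were Fcgr1, the high-affinity receptor of IgG (difference -0.86 with a standard error of 0.25), and Fcgr4 (-0.44 with a standard error of 0.16), and limma's adjusted p was 0.603 for both. The median difference of the 7 was -0.36. The receptors of IgM, Fcmr and Fcamr, were at most 0.0724 TPM and listed at 0 throughout, respectively. Pigr, which carries polymeric IgA and IgM across epithelia, was 0.811, 1.39, 0.976, 0.0886, 0.0278 and 1.13 TPM in ErbB4myeKO 1 to 6 and 0.0900, 0.235, 0.406, 0.0319, 0 and 0.302 TPM in ErbB4FF 1 to 6. It was higher in the library labelled ErbB4myeKO in all 6 litters, though the groups overlapped, and its mean was under the filter, so that it was not tested.

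The genes outside the immunoglobulins whose log2 level over the 12 libraries was most like that of the summed immunoglobulins were Layn, G6pdx, Abcd3, Enpp5 and Trmt10b. Pearson's r was 0.98, 0.94, 0.93, 0.93 and 0.92 over 12 libraries among 8721 genes, and 0.90 to 0.97 without ErbB4myeKO 6. These are descriptions, in which the points share litters and the genes were ranked over the same libraries. Layn was 1.31 and 1.78 TPM in litter 3, 2.95 to 4.18 TPM in litters 1, 4 and 5, and 6.73 TPM in ErbB4myeKO 6. G6pdx, of glucose oxidation, went from 104 TPM in ErbB4FF 3 to 160 TPM in ErbB4myeKO 6, so that a small rise in it went with the wide range of the immunoglobulins.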

How the data were processed

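Total RNA of 12 M1-activated BM-Mɸ cultures was sequenced by the authors as stranded, poly(A)-selected, single-end 75 bp libraries. The values deposited by the authors are TPM from kallisto, for transcripts marked as principal by APPRIS; the submitters' processing notes also name CASAVA, sleuth and mm10, with versions not given in the sources used here. The authors also deposited sleuth's mean natural log of normalized estimated counts, used here only to relate TPM to counts. The deposited p-values, q-values and ratios of the authors' genotype comparison were not used.

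Lines that repeat a transcript were dropped (29213 lines, 28808 transcripts), and TPM were summed per gene; every immunoglobulin gene has 1 transcript in the table. All 232 genes matched GENCODE M21 (GRCm38), which gave positions and sequences. The members and gene lists were chosen with earlier results of these data known. Genes named are Igkc, Jchain, all heavy and lambda constant genes, the 5 heavy and 5 kappa variable genes with the highest mean, the 3 lambda variable genes, members with unadjusted p under 0.05, the highest or defining genes of each list, and the 5 genes most like the summed members; others were picked after their values were seen, and are said to be where they are not mere examples of a list.

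Genes averaging 1 TPM or more (8780) entered a limma 3.58.1 fit in R 4.3.3 of log2(TPM + 0.5) on genotype and litter, moderated with a trend, and p-values were adjusted by Benjamini-Hochberg. For Igkc, Jchain and Ighm a two-sided exact permutation test used the 64 swaps of genotype within litters (32 where 1 litter was left out). For Igkc and Ighm the swap of litter 3 changes nothing. Sums and shares are given without a test. The number on the labels marks a shared litter (batches A to F), and littermates correlated at r = 0.273 to 0.774 after gene means were removed. The fit was tested on simulated data of 8780 genes with 200 changed. It recovered 57% of changes of 1 and 88% of changes of 2 on the log2 scale, with 7 false calls among 152. The changed genes were drawn from all 8780, with normal noise that was independent between genes. These shares thus do not give the recovery of immunoglobulin genes, with their many values at 0. Tables and plots were made in Python 3.11.15 (pandas 2.3.3, numpy 2.4.6, matplotlib 3.10.9, scipy 1.17.1). Alternatives were no block, no trend, no filter, a filter at 5 TPM, a pseudocount of 0.1 or 1, scaling to median ratios, a covariate from 4 Y-linked genes with the block, the highest transcript alone, members averaging at least 1 TPM, constant genes alone, and each litter left out. Other than through that covariate sex was not used, as the labels do not give it.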

Additional observations from a re-analysis of the deposited data

Results flagged for a closer look

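Libraries far from the other 5 of their group were looked for in 57 groups of 6 values, by the gap of the extreme library over the group's range. For normally distributed values chance flags about 1 group in 20, and here 41 were flagged, 24 of them for ErbB4myeKO 6. Many of the genes were named for a high mean, which ErbB4myeKO 6 often supplied. Flags for that library thus follow in part from how the genes were picked, and the count is not set against chance. These genes are listed at 0 in many libraries, so that a gap of the whole range is common, and they are not independent of each other.

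ErbB4myeKO 6 stood above its group in the sum of all members (3003 TPM), of heavy variable (493 TPM) and of kappa variable genes (1019 TPM), in Igkc (1421 TPM) and in Jchain (22.6 TPM). It did so in the constant genes Ighg2c (1.70 TPM), Igha (0.355 TPM), Ighg1 (0.293 TPM), Ighg2b (0.141 TPM) and Iglc3 (3.95 TPM). Among heavy variable genes it did so in Ighv1-26 (91.2 TPM), Ighv9-3 (40.3 TPM), Ighv1-54 (35.3 TPM), Ighv1-39 (14.8 TPM) and Ighv14-3 (10.3 TPM). Among light variable genes it did so in Igkv4-57 (129.0 TPM), Igkv10-96 (79.5 TPM), Igkv12-44 (72.6 TPM), Igkv12-46 (68.3 TPM), Igkv1-110 (15.8 TPM), Igkv4-59 (13.2 TPM), Igkv1-88 (2.04 TPM), Iglv1 (24.1 TPM) and Iglv3 (1.83 TPM).

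ErbB4FF 6 stood above its group in Igkc (169.7 TPM), Ighv1-26 (2.76 TPM), Ighv5-16 (15.7 TPM), Igkv12-46 (4.63 TPM), Igkv17-127 (1.14 TPM) and Igkv6-32 (0.548 TPM). ErbB4FF 1 did so in Ighv7-1 (30.8 TPM), Ighv9-3 (9.37 TPM), Igkv15-103 (37.0 TPM), Iglv1 (20.3 TPM), Iglv3 (3.58 TPM), Iglc1 (6.38 TPM) and Iglc3 (3.22 TPM). In litter 5 both libraries stood above their groups in Ighm (18.4 TPM in ErbB4myeKO 5 and 25.3 TPM in ErbB4FF 5), and ErbB4myeKO 5 did so in Ighd (0.379 TPM) and Iglv2 (1.85 TPM).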

How the results depend on the processing

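Under the alternatives tried, Igkc and the 10 genes with an unadjusted p under 0.05 kept their direction where they were tested. Most of the 10 had no litter in the opposite direction. A litter left out, or another pseudocount or filter, could therefore not turn their sign. No immunoglobulin gene had an adjusted p under 0.05 except Igkv1-88 without litter 3. That gene made both the count of members and the count of all genes 1 (range 0 to 1 with a litter left out). Without the replicate block, 75 of all genes and 5 immunoglobulin genes had an unadjusted p under 0.05, against 721 and 10 with littermates paired. The count of immunoglobulin genes was 1 with a mean of at least 5 TPM, where fewer genes were tested, and 3 to 12 with a litter left out (3 without litter 6); that of all genes was 413 to 864 (413 without litter 2 and 458 without litter 4, cause not tested). The size of a difference depends on the pseudocount where libraries are at 0, and with 0.1 in place of 0.5 it was -4.23 for Igkv1-88, -3.82 for Ighv5-16, 3.31 for Igkv4-59, 3.03 for Ighv14-3, 2.59 for Igkv6-32, 2.27 for Igkv17-127 and 1.98 for Igkv1-110. With the Y-linked covariate that of Igkc was 0.46, and without litter 5 that of Igkv17-127 was 0.97. With a litter left out the mean log2 ratio was 0.28 to 0.96 for Igkc, 0.73 to 1.20 for Jchain, -1.27 to -0.70 for Ighm and 0.50 to 1.24 for the sum, the median heavy share of variable TPM 32.8% to 41.1%, the lambda share of light constant TPM 1.16% to 2.55% (0.950% from members averaging at least 1 TPM), and the Ighm share 100%. From constant genes alone the median heavy share was 1.61% in place of 37.9% (cause not tested). TPM carry no depth, and variable genes at a few TPM rest on few reads.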
